A study of Drosophila melanogaster with 18 samples.

Results

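A set of 10 regulators of the cell cycle was followed by RNA-seq in BG3 cells: the cyclins CycA, CycB, CycB3, CycD and CycE, the Cdc25 phosphatase gene stg (string), the Cdk inhibitor gene dap (dacapo), the E2F partner gene Dp, the retinoblastoma family gene Rbf and fzy (fizzy), which encodes an activator of the anaphase promoting complex. They were taken by symbol from the count files, and all 10 of the 10 were among the 16727 genes listed there and among the 10545 genes tested. BG3 is a Drosophila melanogaster line that comes from the larval central nervous system. The 12 libraries were 3 replicates each of WT cells, of cells with BEAF-32 RNAi, of the double knockdown Cp190 RNAi Chro RNAi and of the double knockdown BEAF-32 RNAi Dref RNAi, where each RNAi group had been transfected with dsRNA against the named gene or genes. All RNAi groups are listed with the same amount of dsRNA and with harvest 3 days after transfection. Levels at other times or doses were therefore not measured. No harvest time is listed for WT cells, which are not stated to have received any dsRNA. Depletion of a target and transfection with dsRNA therefore cannot be told apart in the comparisons with WT. BEAF-32, Cp190 and Chro (Chromator) are architectural proteins found at borders of topologically associating domains (TADs), and Dref is a transcription factor first known from promoters of DNA replication genes. The comparisons ask whether depletion of these proteins goes with other transcript levels of the regulators that drive S phase and mitosis.

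In flies, as in other animals, Cyclin E with Cdk2 drives entry into S phase, and Cyclin D with Cdk4 promotes growth and the G1 phase. Cyclins A, B and B3 with Cdk1 drive mitosis once String has removed the inhibitory phosphates from Cdk1, and Fizzy then directs the anaphase promoting complex to destroy the mitotic cyclins. Dacapo inhibits Cyclin E with Cdk2, while Rbf holds E2F-Dp dimers in check until cyclin-dependent kinases release them.

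Reads assigned to genes ranged from 7178403 to 12202598 per library, with the lowest total in BEAF-32 RNAi replicate 3. That library stood apart: 29.5% of its reads had no unique alignment, against 21.0 and 21.9% in the other BEAF-32 RNAi libraries and 16.0 to 17.0% in WT. Results of the 10 regulators under BEAF-32 RNAi are therefore given with and without it. Transcripts of the targeted genes were lower in the RNAi groups that target them than in WT, with log2 fold changes of -0.77 ± 0.18 (SE, 3 libraries a group; -1.08 without replicate 3) for BEAF-32 under BEAF-32 RNAi. They were -0.54 ± 0.12 for Cp190 and -0.75 ± 0.22 for Chro under Cp190 RNAi Chro RNAi, and -0.72 ± 0.18 for BEAF-32 and -0.67 ± 0.16 for Dref under BEAF-32 RNAi Dref RNAi. BEAF-32 itself was at 40.95 and 44.6 CPM in replicates 1 and 2 of its knockdown and at 74.8 in replicate 3, against 88.6 to 92.7 in WT. Decreases were not limited to the targets. Under BEAF-32 RNAi the untargeted Cp190, Chro and Dref were called lower (-0.54, -0.86 and -0.72). Without replicate 3 they were still called, at -0.39, -0.57 and -0.51. Cp190 and Chro were also called lower in the double knockdown with Dref (-0.56 and -1.01), and Dref in that of Cp190 and Chro (-0.50). BEAF-32 was not called under Cp190 RNAi Chro RNAi, which does not target it (-0.31 ± 0.18, adjusted p = 0.206). Without BEAF-32 RNAi replicate 3 it was called there, at -0.31 (adjusted p = 0.000126), a smaller decrease than in the groups that target it. For Cp190, Chro and Dref these transcript levels therefore do not show a depletion specific to the targets. Of the cell type markers, the glial gene repo and the neuronal gene elav had means of 60.3 and 77.5 CPM (counts divided by the scaled library size and brought to a common total) in WT, and the hemocyte factor srp had 803.6. The neuronal genes nSyb, brp and Syt1 had under 1 CPM. ChAT (neurons), wor (neuroblasts), gcm (glia), He (hemocytes) and Fbp1 (fat body) were at 0 in all WT libraries. In WT, 5 of 6 glia, 3 of 6 hemocyte, 3 of 7 neuroblast and 2 of 8 neuron markers had means of at least 1 CPM. The glia markers summed to 1181 to 1226 CPM. Markers also moved with the groups, and those of neuroblasts and glia in both directions. Of 6 glia markers tested, 2 were called lower in each comparison and 1, 1 and 2 higher. Of 6 neuroblast markers tested, 1 was called lower in each comparison and 3, 2 and 2 higher. The 1 was mira, at 37.4 CPM in WT and 2.94 or less in each RNAi group, while insc was at 2.27 in WT and at 32.9, 12.7 and 19.6 in the RNAi groups. These are group means that include BEAF-32 RNAi replicate 3. Among the BEAF-32 RNAi libraries the neuroblast markers summed to between 28.3 and 84.7 CPM, so the mean of insc there may not stand for each library. The 5 germline markers, 4 of them called higher in every comparison (3 under BEAF-32 RNAi without replicate 3), summed to 43.2 to 44.9 CPM in WT and to 82.8 to 143.5 in the RNAi libraries. Their part in the results was not tested.

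In WT cells the 10 transcripts spanned from 10.6 ± 0.67 CPM per exon kb for CycE to 132.6 ± 3.63 for Dp (SD, n = 3). In descending order they were Dp, stg, CycB, fzy, CycA, dap, Rbf, CycB3, CycD and CycE. The WT ranges of stg and CycB overlapped, as did those of CycB and fzy, while all other neighbours in this order had ranges that did not overlap. All further levels are in CPM scaled by TMM (trimmed mean of M values), and fold changes compare groups within 1 gene.

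**Figure D1:**
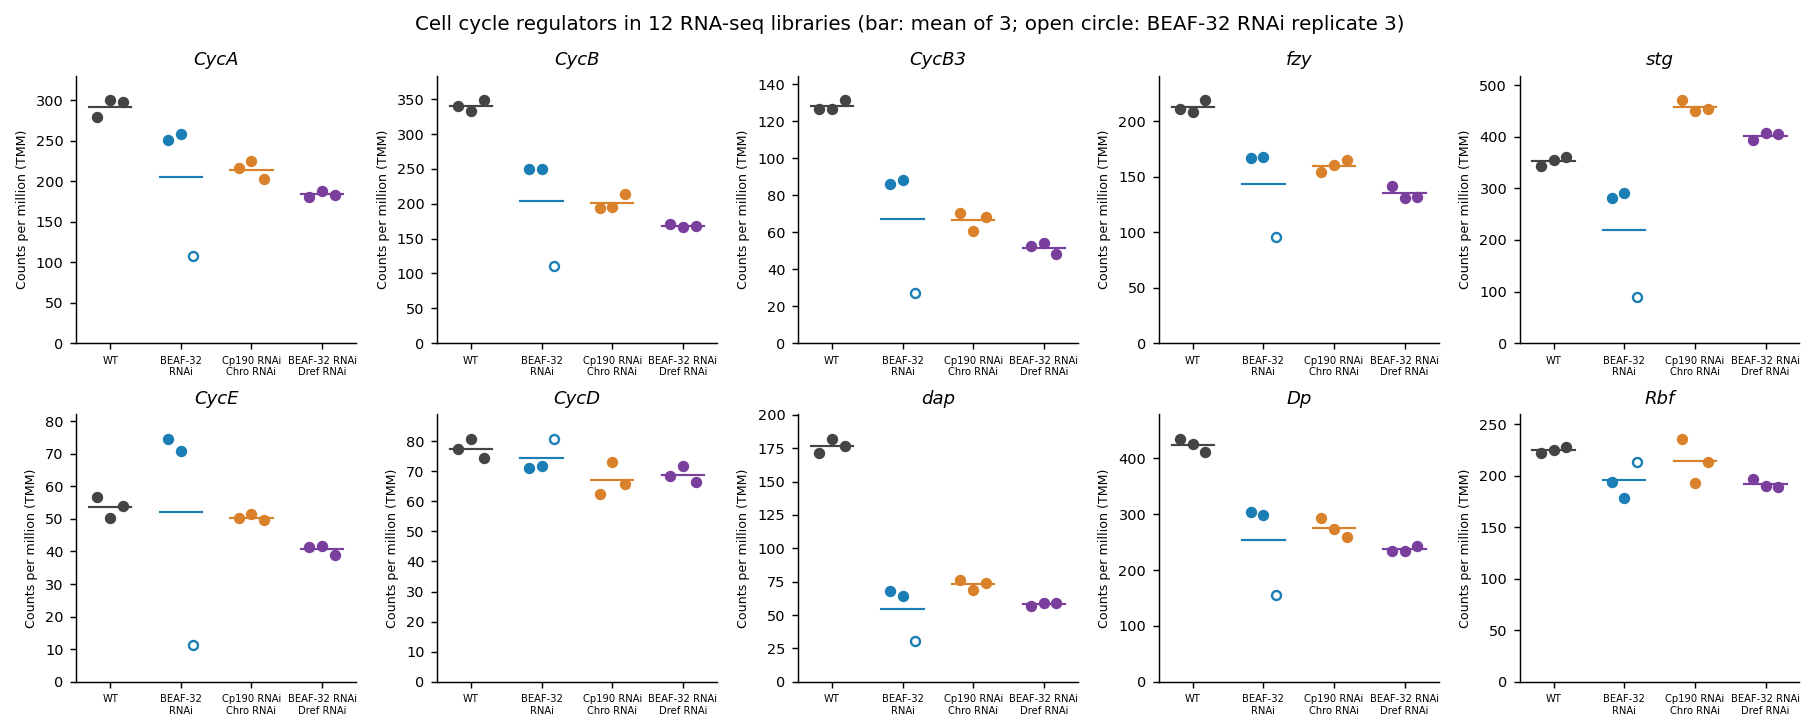
Level of each of the 10 regulators in the 12 libraries, on a linear axis in TMM-scaled CPM that starts at 0; points are libraries, bars are means of 3 and the open circle is BEAF-32 RNAi replicate 3. In both double knockdowns every library lies below every WT library for CycA, CycB, CycB3, fzy, CycD, dap and Dp and above every WT library for stg, and the open circle is the lowest of all 12 points for 8 genes.

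Across the 3 knockdowns, transcripts of the mitotic cyclins CycB and CycB3, of Dp and of dap were lower than in WT, while those of CycD and Rbf stayed close to WT and stg was above WT in both double knockdowns. A gene was called when its Benjamini-Hochberg adjusted p in edgeR's quasi-likelihood test over all genes was under 0.05. Under BEAF-32 RNAi 5 of the 10 were called lower (CycB, CycB3, Dp, dap and fzy), where 15.7% of all genes tested were called lower. Under Cp190 RNAi Chro RNAi 4 were called lower (CycB, CycB3, Dp and dap; 15.6% of all genes), and under BEAF-32 RNAi Dref RNAi 6 (these 4, CycA and fzy; 20.3% of all genes). None of the 10 was called higher by edgeR, by DESeq2 or at an unadjusted p under 0.05, although 18.5%, 17.9% and 21.5% of all genes were called higher in the 3 comparisons. The median log2 fold change of the 10 was -0.62, -0.43 and -0.66, beside medians over all genes of 0.07, 0.02 and 0.03. Without BEAF-32 RNAi replicate 3 it was -0.32, -0.43 and -0.67. All 3 libraries lay below all WT libraries for 8, 7 and 9 of the 10, where this held for 22.8%, 29.8% and 31.8% of all genes. They lay above them for 0, 1 and 1, where it held for 23.7%, 30.7% and 33.0%. The 3 comparisons share the same WT libraries, and the values below are set side by side for that reason. In bulk RNA, fewer cells in a phase of the cycle and less RNA per cell cannot be told apart.

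The counts rest in part on single libraries. With BEAF-32 RNAi replicate 3 left out, 8 regulators were called lower and CycE higher under BEAF-32 RNAi, where 22.9% and 23.2% of all genes were called lower and higher. Since the fit shares its estimate of spread across groups, the other counts moved too, to 7 lower and 1 higher under Cp190 RNAi Chro RNAi (28.4% and 29.2% of all genes) and to 9 lower and 1 higher under BEAF-32 RNAi Dref RNAi (30.3% and 30.8% of all genes), with stg as the gene called higher in both. Leaving out WT replicate 1, 2 or 3 left 2, 3 and 2 regulators called under BEAF-32 RNAi and 1 in each case under Cp190 RNAi Chro RNAi, and CycB and CycB3 lost their calls in both. Leaving out Cp190 RNAi Chro RNAi replicate 1, 2 or 3 left 1, 2 and 1 called in that comparison. dap was called in every one of these fits.

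**Figure D2:**
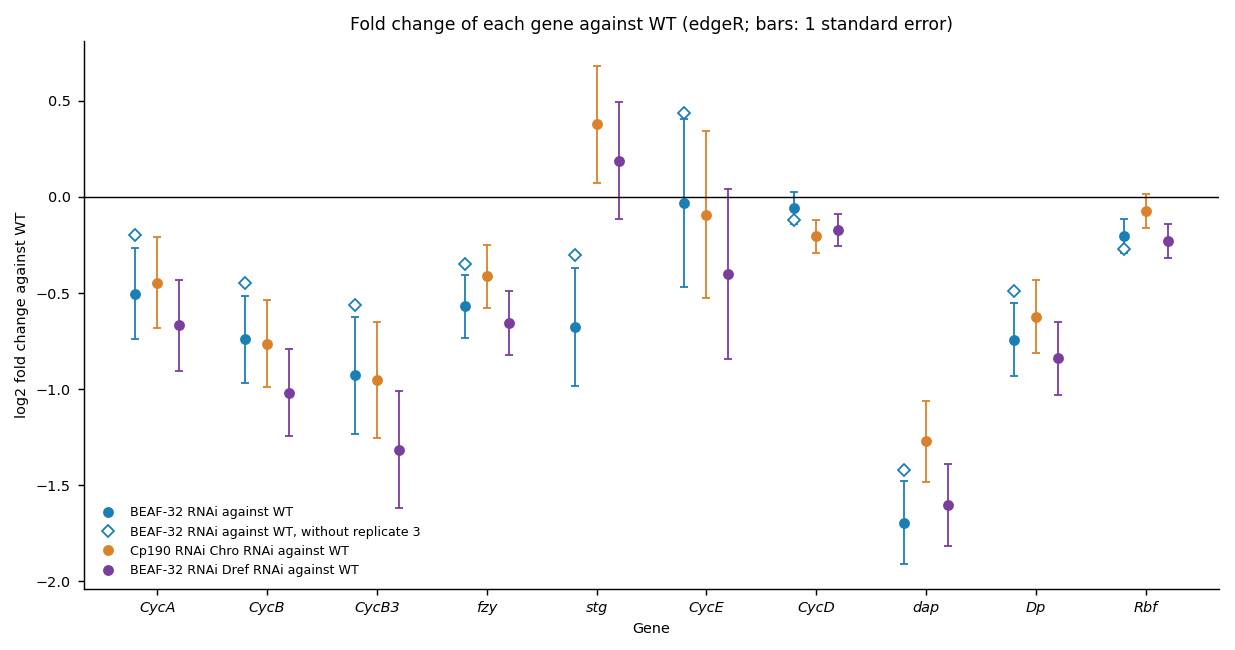
Log2 fold change of each regulator against WT, with bars of 1 standard error from the edgeR fit on 12 libraries; open diamonds give BEAF-32 RNAi in the fit without its replicate 3. dap has the lowest values of the 10 in every comparison, stg lies below 0 under BEAF-32 RNAi and above 0 in both double knockdowns, and CycE under BEAF-32 RNAi moves from -0.03 to 0.44 without replicate 3.

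CycB (2R, 22803521 to 22806948), the partner of Cdk1 in mitosis, was at 340.5, 333.5 and 348.8 CPM in the 3 WT libraries and at 250.1, 250.5 and 110.5 under BEAF-32 RNAi. It was at 193.9, 194.9 and 213.7 under Cp190 RNAi Chro RNAi and at 170.7, 166.1 and 168.1 under BEAF-32 RNAi Dref RNAi. All 9 RNAi libraries were below the lowest WT library. Its log2 fold changes against WT were -0.74 ± 0.23 (adjusted p = 0.026), -0.76 ± 0.23 (adjusted p = 0.0231) and -1.02 ± 0.23 (adjusted p = 0.00449), and the first became -0.45 ± 0.053 without BEAF-32 RNAi replicate 3 (adjusted p = 1.14e-10).

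CycB3 (3R, 24867934 to 24870816), a cyclin that acts with CycB late in mitosis, fell the furthest of the cyclins. It was at 126.6, 126.6 and 131.3 CPM in WT and at 85.8, 88.0 and 27.2 under BEAF-32 RNAi. Levels were 70.2, 60.7 and 67.9 under Cp190 RNAi Chro RNAi and 52.3, 54.1 and 48.3 under BEAF-32 RNAi Dref RNAi. The groups did not overlap with WT, and the levels of BEAF-32 RNAi Dref RNAi were 40.2% of WT in the fit (log2 fold change -1.31 ± 0.31, adjusted p = 0.0057). Under BEAF-32 RNAi the log2 fold change was -0.93 ± 0.30 (adjusted p = 0.0343), or -0.56 ± 0.072 without replicate 3, and under Cp190 RNAi Chro RNAi it was -0.95 ± 0.30 (adjusted p = 0.031).

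CycA (3L, 11826719 to 11833578), which is needed for entry into mitosis, was at 278.9, 300.2 and 297.3 CPM in WT and at 250.5, 258.6 and 108.1 under BEAF-32 RNAi. The double knockdowns had 216.3, 224.8 and 202.2 under Cp190 RNAi Chro RNAi and 180.5, 188.3 and 183.3 under BEAF-32 RNAi Dref RNAi. Every RNAi library was below every WT library, and the decrease was called only under BEAF-32 RNAi Dref RNAi (-0.67 ± 0.24 on the log2 scale, adjusted p = 0.0405), where it lost its call when any 1 library of WT or of either double knockdown was left out, and when libraries were scaled by total counts. Under BEAF-32 RNAi the value was -0.50 ± 0.24 (adjusted p = 0.117) and under Cp190 RNAi Chro RNAi -0.45 ± 0.24 (adjusted p = 0.163). Without BEAF-32 RNAi replicate 3 the same comparisons gave -0.20 ± 0.054 (adjusted p = 0.00176) and -0.45 ± 0.048 (adjusted p = 1.9e-12).

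fzy (2L, 16310956 to 16313097) was at 210.8, 208.2 and 219.0 CPM in WT and at 166.7, 167.4 and 95.5 under BEAF-32 RNAi. It was at 154.2, 160.5 and 164.7 under Cp190 RNAi Chro RNAi and at 141.9, 131.1 and 132.0 under BEAF-32 RNAi Dref RNAi. It was called lower under BEAF-32 RNAi (-0.57 ± 0.16, adjusted p = 0.0201, or -0.35 ± 0.057 without replicate 3) and under BEAF-32 RNAi Dref RNAi (-0.66 ± 0.16, adjusted p = 0.00827) and missed the threshold under Cp190 RNAi Chro RNAi (-0.41 ± 0.16, adjusted p = 0.0709, or 1.2e-10 without BEAF-32 RNAi replicate 3). Its call under BEAF-32 RNAi was lost without WT replicate 1 or 3. An exon of fzy overlaps the gene cact on the other strand, and whether the libraries kept strand is not given in the sources here.

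stg (3R, 29251826 to 29255800), the phosphatase that activates Cdk1, lay below WT in 1 knockdown and above it in the others. Its levels were 342.8, 354.3 and 361.1 CPM in WT and 281.8, 290.2 and 88.6 under BEAF-32 RNAi. Levels were 471.1, 450.7 and 453.1 under Cp190 RNAi Chro RNAi and 394.2, 406.5 and 406.2 under BEAF-32 RNAi Dref RNAi. The 4 groups did not overlap: all BEAF-32 RNAi libraries were below WT and all libraries of both double knockdowns were above it. In the fit on 12 libraries none of these differences from WT was called, at log2 fold changes of -0.68 ± 0.31 (adjusted p = 0.107), 0.38 ± 0.31 (adjusted p = 0.361) and 0.19 ± 0.31 (adjusted p = 0.643). Without BEAF-32 RNAi replicate 3 the standard error of stg fell to 0.044 under Cp190 RNAi Chro RNAi, where the fold change stayed at 0.37 (adjusted p = 4.72e-11). In that fit BEAF-32 RNAi was at -0.30 ± 0.051 (adjusted p = 1.03e-06) and BEAF-32 RNAi Dref RNAi at 0.18 ± 0.045 (adjusted p = 0.000324). The direct comparison of the knockdowns tests the difference itself: stg was higher under Cp190 RNAi Chro RNAi than under BEAF-32 RNAi by 1.06 ± 0.31 on the log2 scale (adjusted p = 0.0648), and by 0.68 ± 0.051 without replicate 3 (adjusted p = 7.37e-18).

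A ratio taken within each library needs no scaling between libraries, and was computed for stg against the sum of CycA and CycB, which were chosen after their values had been seen. There were 0.553 to 0.559 stg reads per read of CycA and CycB in WT, 0.563, 0.570 and 0.405 under BEAF-32 RNAi, 1.07 to 1.15 under Cp190 RNAi Chro RNAi and 1.12 to 1.16 under BEAF-32 RNAi Dref RNAi. The double knockdowns thus held more stg reads than reads of both mitotic cyclins together, and BEAF-32 RNAi replicates 1 and 2 lay just above the WT range.

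**Figure D3:**
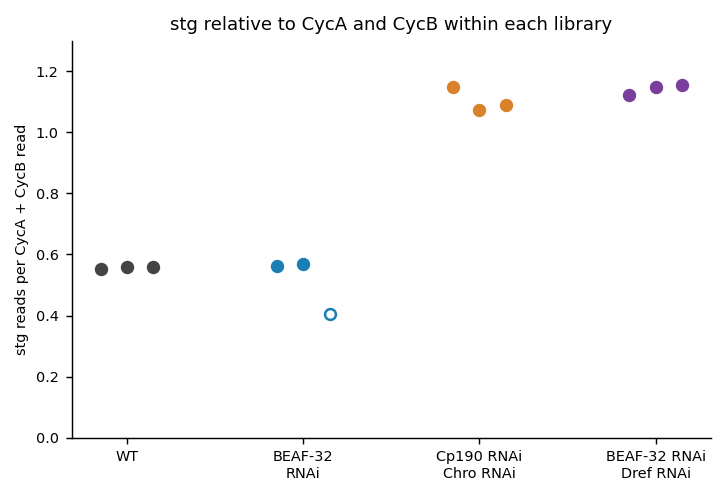
Reads of stg per read of CycA and CycB in each of the 12 libraries, on a linear axis from 0; each point is 1 library and the open circle is BEAF-32 RNAi replicate 3. WT and BEAF-32 RNAi libraries lie at or below 0.570 and those of both double knockdowns at or above 1.07.

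The promoters of CycA and stg are shown because CycA is the only regulator of the 10 with a full DNA replication-related element (DRE, TATCGATA), the sequence that Dref binds, and because stg went the other way from CycA in both double knockdowns. Each stretch is the 200 bases just before the gene's start in dm6, read from RefSeq's genome of that build in the direction of transcription, with matches of the motifs below in capitals.
CycA, chr3L:11833579-11833778, minus strand: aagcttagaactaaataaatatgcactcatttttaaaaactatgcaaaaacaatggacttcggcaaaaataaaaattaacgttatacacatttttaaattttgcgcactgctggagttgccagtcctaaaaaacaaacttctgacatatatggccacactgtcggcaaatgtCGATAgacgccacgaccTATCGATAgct
stg, chr3R:29255801-29256000, minus strand: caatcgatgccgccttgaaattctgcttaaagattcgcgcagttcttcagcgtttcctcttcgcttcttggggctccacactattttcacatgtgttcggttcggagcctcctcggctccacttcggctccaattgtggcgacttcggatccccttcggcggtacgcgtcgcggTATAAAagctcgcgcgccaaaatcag
In CycA the DRE begins 11 bases before the start, overlaps a CGATA on each strand and lies behind a further CGATA that begins 28 bases before the start. CGATA is the core of the sequence to which BEAF-32 binds. In stg the capitals mark TATAAA, the core of a TATA box, 26 bases before the start, a motif searched after the sequence had been seen.

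Motifs were searched on both strands of the 300 bases from 250 before to 50 after the start of 13945 protein-coding genes. DRE stands in 9.36% of them and in 1 of the 10 regulators. CGATA stands in 47.4% of them and in 5 of the 10 (CycA, CycB, CycD, Dp and dap), and the matches in CycA include those inside its DRE. TATAAA stands in 45.8% of them and in 4 of the 10 (CycA, stg, dap and fzy), and the E2F site TTTCGCGC in 1.15% and in none of the 10. The CGATA of CycD lies 83 bases before its start, in atgaagatCGATAtgttttac (chrX:15909747-15909767, minus strand, motif in capitals). These matches describe the letters only, and binding was not measured in these files.

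CycE (2L, 15727581 to 15748150), the S phase cyclin, showed the largest effect of 1 library. It was at 56.9, 50.2 and 54.1 CPM in WT and at 74.6, 70.7 and 11.2 under BEAF-32 RNAi. The double knockdowns had 50.2, 51.4 and 49.5 under Cp190 RNAi Chro RNAi and 41.3, 41.7 and 38.9 under BEAF-32 RNAi Dref RNAi. Replicates 1 and 2 of BEAF-32 RNAi were the highest of all 12 libraries and replicate 3, with 79 reads, the lowest. The log2 fold change under BEAF-32 RNAi was -0.03 ± 0.44 (adjusted p = 0.968) with replicate 3 and 0.44 ± 0.083 without it (adjusted p = 1.05e-05), and with all 12 libraries kept it was 0.024 when scaled by total counts. Values under Cp190 RNAi Chro RNAi were within the spread (-0.09 ± 0.44, adjusted p = 0.887), while all 3 libraries of BEAF-32 RNAi Dref RNAi were below WT at -0.40 ± 0.44 (adjusted p = 0.488, or 1.04e-05 without BEAF-32 RNAi replicate 3). CycE shares exonic bases with 2 non-coding genes on the other strand.

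CycD (X, 15906822 to 15909676), the partner of Cdk4, had fold changes close to 0. Its levels were 77.4, 80.6 and 74.4 CPM in WT and 71.0, 71.6 and 80.8 under BEAF-32 RNAi. It was at 62.5, 73.2 and 65.9 under Cp190 RNAi Chro RNAi and at 68.3, 71.6 and 66.5 under BEAF-32 RNAi Dref RNAi. BEAF-32 RNAi overlapped with WT, at a log2 fold change of -0.06 ± 0.084 whose 95% interval ran from -0.22 to 0.11, and at -0.12 ± 0.077 without replicate 3 (adjusted p = 0.217). Both double knockdowns were just below the WT range and were not called (-0.21 ± 0.084, adjusted p = 0.0783, and -0.17 ± 0.084, adjusted p = 0.123), while the same values passed the threshold without BEAF-32 RNAi replicate 3 (adjusted p = 0.00701 and 0.024).

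dap (2R, 9712321 to 9716256), which encodes the inhibitor of Cyclin E with Cdk2, fell the most of the 10. It was at 171.0, 182.0 and 176.7 CPM in WT and at 68.1, 64.0 and 30.7 under BEAF-32 RNAi. Levels were 76.6, 68.7 and 74.1 under Cp190 RNAi Chro RNAi and 57.0, 58.8 and 58.7 under BEAF-32 RNAi Dref RNAi. All 9 RNAi libraries were far below the lowest WT library. Fitted levels were 30.9%, 41.4% and 33.0% of WT, with log2 fold changes of -1.69 ± 0.21 (adjusted p = 0.000156), -1.27 ± 0.21 (adjusted p = 0.000989) and -1.60 ± 0.21 (adjusted p = 0.000188). The first was -1.42 ± 0.070 without BEAF-32 RNAi replicate 3, or 37.4% of WT. Beside it CycE was higher than WT in 2 of 3 BEAF-32 RNAi libraries and lower in all libraries of BEAF-32 RNAi Dref RNAi.

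Dp (2R, 13222433 to 13228202), the dimer partner of both fly E2F proteins, had the highest level per kb in WT and was called lower in each knockdown. It was at 434.9, 425.8 and 411.9 CPM in WT and at 304.1, 299.4 and 156.2 under BEAF-32 RNAi. The double knockdowns had 293.6, 273.3 and 259.9 under Cp190 RNAi Chro RNAi and 233.3, 233.8 and 243.6 under BEAF-32 RNAi Dref RNAi. No RNAi library reached the lowest WT library. The log2 fold changes were -0.74 ± 0.19 (adjusted p = 0.0112), -0.62 ± 0.19 (adjusted p = 0.0257) and -0.84 ± 0.19 (adjusted p = 0.00473), and the first was -0.49 ± 0.053 without BEAF-32 RNAi replicate 3. Under Cp190 RNAi Chro RNAi the call was lost when any 1 library of WT or of that knockdown was left out. Part of Dp's exons overlaps Fsn on the other strand.

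Rbf (X, 797090 to 801479), the repressor of E2F-Dp, was at 221.7, 224.9 and 228.4 CPM in WT and at 194.2, 178.9 and 213.5 under BEAF-32 RNAi. It was at 235.9, 192.5 and 213.6 under Cp190 RNAi Chro RNAi and at 196.9, 190.1 and 189.4 under BEAF-32 RNAi Dref RNAi. It was below WT in all libraries of the groups with BEAF-32 depleted and not called in either (-0.20 ± 0.088, adjusted p = 0.0928, and -0.23 ± 0.088, adjusted p = 0.0554), but called lower in both without BEAF-32 RNAi replicate 3 (-0.27 ± 0.060 and -0.23 ± 0.054). Cp190 RNAi Chro RNAi overlapped with WT, at -0.07 ± 0.087 with a 95% interval from -0.24 to 0.10.

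Symbols in the count files are sensitive to case, and 52 pairs of symbols differ in case alone. Dp and dp are such a pair, and they are different genes on different arms. dp (dumpy, a large extracellular matrix protein) lies on 2L from 4477462 to 4614300, 439 bases from ine (inebriated, a transporter of the neurotransmitter transporter family), which in turn overlaps FIG4, a phosphoinositide phosphatase gene, on the other strand. Dp, on 2R, is no neighbour of ine or FIG4, so its values are not those of the locus that holds dp, ine and FIG4.

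At the dp locus, dp and FIG4 did not move as Dp did, while ine was called lower in all 3 comparisons, as Dp was. dp was at 7.79, 9.26 and 10.2 CPM in WT and at 23.9, 22.2 and 11.1 under BEAF-32 RNAi. Levels were 21.0, 19.1 and 17.4 under Cp190 RNAi Chro RNAi and 18.4, 13.5 and 21.4 under BEAF-32 RNAi Dref RNAi. dp was called higher in all 3 comparisons (1.08 ± 0.26, adjusted p = 0.00864, or 1.34 without BEAF-32 RNAi replicate 3; 1.08 ± 0.26, adjusted p = 0.00868; 0.97 ± 0.26, adjusted p = 0.0119). ine fell from 20.5, 25.03 and 26.6 CPM in WT to 2.12, 3.29 and 4.41 under BEAF-32 RNAi (-2.89 ± 0.23, adjusted p = 6.72e-06, or -3.13 without replicate 3) and was also called lower under Cp190 RNAi Chro RNAi (-0.96 ± 0.20) and, with -1.49 ± 0.21, under BEAF-32 RNAi Dref RNAi. FIG4 was not called in any comparison, with means of 38.7 to 42.1 CPM in the 4 groups.

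**Figure D4:**
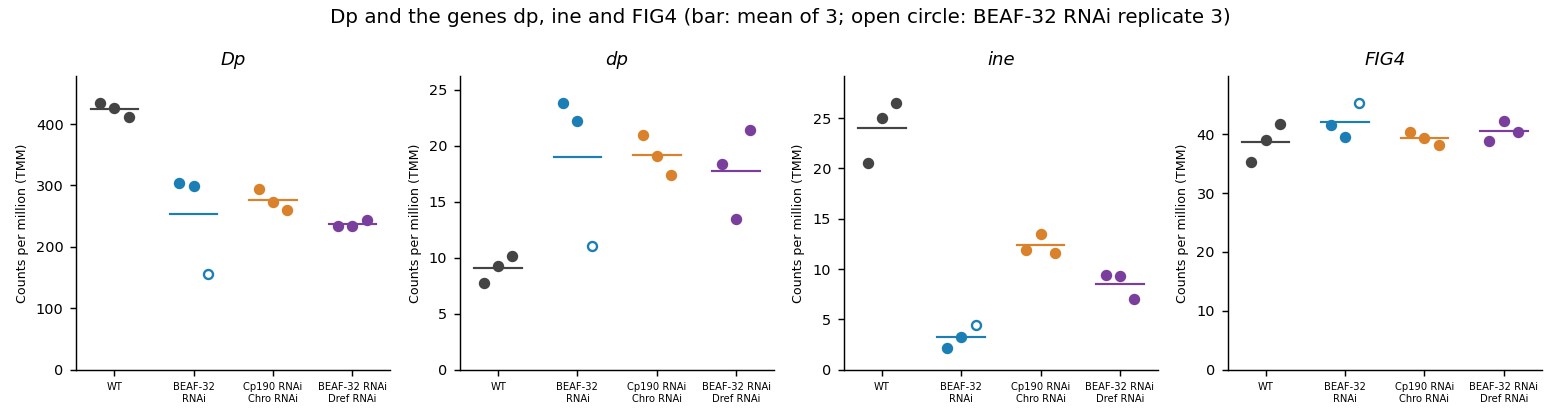
Levels of Dp and of dp, ine and FIG4 in the 12 libraries, on linear axes in TMM-scaled CPM from 0; points are libraries, bars are means of 3 and the open circle is BEAF-32 RNAi replicate 3. Dp lies below WT in all 9 RNAi libraries while dp lies above WT in all 9, at 11.1 CPM or more against at most 10.2 in WT.

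Among 7223 other genes with a mean of at least 5 CPM, the 3 whose group means were closest to those of Dp were CG6791, Amun and MYPT-75D, a regulatory subunit of protein phosphatase. Closeness is the root mean square distance between 4 group means on the log2 scale, each centred on the gene's own mean, and was 0.0187, 0.019 and 0.0211. For stg the closest were CG4666, Gel (gelsolin, an actin-severing protein) and CG10660, at larger distances of 0.0289, 0.0735 and 0.0898. Gel was at 478.3 CPM in WT, 309.7 under BEAF-32 RNAi, 711.9 under Cp190 RNAi Chro RNAi and 599.3 under BEAF-32 RNAi Dref RNAi. These genes were picked for group means like those of Dp or stg, so a shared order of groups is no separate result. The group means include BEAF-32 RNAi replicate 3.

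BEAF-32 RNAi replicate 3 was the lowest of all 12 libraries for 8 of the 10 regulators, and CycD and Rbf were the exceptions. On the log2 CPM scale it lay below the mean of replicates 1 and 2 by over 1 unit for 6 of the 10, where 8.44% of all genes did, and the median difference of the 10 was -1.14, beside 0.02 over all genes. CycE stood at 15.7% of replicates 1 and 2, stg at 31.0%, CycB3 at 31.4% and fzy at 57.3%, while CycD and Rbf stood at 113.3% and 114.6%. Replicates 1 and 2 themselves differed by a median of -0.004. The knockdown target itself was lowered least in this library, as given above. What set this library apart was not tested.

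Other genes of the cell cycle were read from lists written from general knowledge. Over 9 lists with 163 entries, of which 160 were tested, 76 were called lower and 9 higher under BEAF-32 RNAi, 57 lower and 8 higher under Cp190 RNAi Chro RNAi and 87 lower and 10 higher under BEAF-32 RNAi Dref RNAi. Over all genes tested, 15.7%, 15.6% and 20.3% were called lower and 18.5%, 17.9% and 21.5% higher in these comparisons. Leaving out BEAF-32 RNAi replicate 3 gave counts of 102 and 12, 107 and 16, and 108 and 19. In that fit 22.9%, 28.4% and 30.3% of all genes were called lower and 23.2%, 29.2% and 30.8% higher. The lists are described by counts and medians. Without that library the medians under BEAF-32 RNAi were -0.38 for mitotic kinases and checkpoint, -0.30 for spindle and cytokinesis, -0.36 for the anaphase promoting complex, -0.17 for SCF, -0.32 for E2F, Rb and dREAM, -0.50 for S phase genes and -0.09 for other cyclins and kinases.

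Among the mitotic kinases and spindle checkpoint genes, 12, 12 and 15 of 21 were called lower in the 3 comparisons, with median log2 fold changes of -0.55, -0.71 and -0.76. Endos, an inhibitor of the phosphatase PP2A, was at -0.58 ± 0.072, -0.43 ± 0.072 and -0.55 ± 0.072, and gwl (Greatwall), the kinase that activates it, at -0.84 ± 0.19, -0.78 ± 0.19 and -1.13 ± 0.19, all called. Of the 21 spindle and cytokinesis genes, 11, 11 and 18 were called lower (medians -0.53, -0.57 and -0.80). The exceptions were sqh, the light chain of non-muscle myosin, which was called higher in all 3 (0.45 ± 0.071, 0.47 ± 0.071 and 0.58 ± 0.071), and cnn, a centrosome protein, called higher under BEAF-32 RNAi Dref RNAi (0.52 ± 0.17). Its value under BEAF-32 RNAi was 0.30 with replicate 3 and -0.02 without it.

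Of the 16 genes of the anaphase promoting complex and its partners that were tested, 11, 9 and 12 were called lower (medians -0.44, -0.45 and -0.39), among them Rca1, an inhibitor of the complex, at -0.98 ± 0.12, -0.71 ± 0.12 and -0.94 ± 0.12. APC7 rose from a mean of 1.04 CPM in WT to 10.1 under BEAF-32 RNAi (3.25 ± 0.57, adjusted p = 0.00147), or 2.28 without replicate 3. Of the SCF ubiquitin ligase genes, 3 of 9 were called lower in each comparison (medians -0.07, -0.03 and -0.08), where 15.7%, 15.6% and 20.3% of all genes were. SkpA was one of them (-0.48 ± 0.11, -0.36 ± 0.10 and -0.44 ± 0.11). Of the E2F, Rb and dREAM genes other than Dp and Rbf, 4, 3 and 7 of 10 were called lower (medians -0.52, -0.46 and -0.65). Rbf2, the second fly retinoblastoma protein, was at -0.97 ± 0.23, -0.97 ± 0.23 and -1.23 ± 0.23, all called, and tomb, which acts in a testis relative of the complex, was called higher in both double knockdowns at 2.32 ± 0.55 and 2.75 ± 0.55.

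Among the S phase genes known for E2F-dependent transcription, 18 of 25 were called lower under BEAF-32 RNAi, 6 under Cp190 RNAi Chro RNAi and 15 under BEAF-32 RNAi Dref RNAi (medians -0.79, -0.45 and -0.72). The counts were 23, 21 and 23 when BEAF-32 RNAi replicate 3 was left out, where 22.9%, 28.4% and 30.3% of all genes were called lower. Orc1, a subunit of the origin recognition complex, was called in all 3 (-0.32 ± 0.10, -0.38 ± 0.10 and -0.63 ± 0.10), and RnrS, the small subunit of ribonucleotide reductase, under BEAF-32 RNAi (-0.71 ± 0.13). Of 20 kinase and other cyclin genes, 5, 5 and 6 were called lower (medians -0.06, -0.10 and -0.08), where 15.7%, 15.6% and 20.3% of all genes were. Cks30A, a Cdk-binding protein, was at -0.80 ± 0.22 (-0.52 without BEAF-32 RNAi replicate 3), -1.59 ± 0.22 and -1.80 ± 0.22, while its relative Cks85A was called higher in both double knockdowns (0.63 ± 0.10 and 0.68 ± 0.10).

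**Figure D5:**
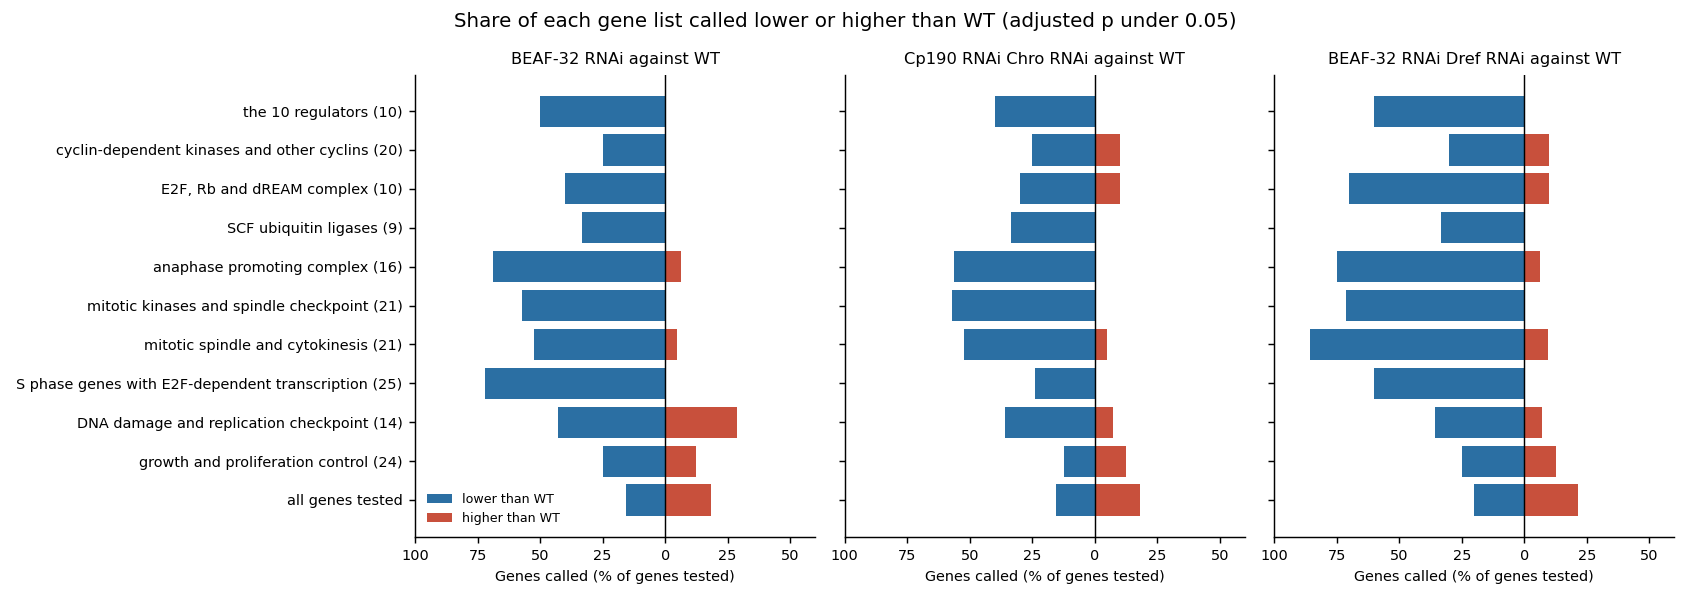
Percent of the genes tested in each list that edgeR called lower (bars to the left) or higher (bars to the right) than WT at an adjusted p under 0.05, for the 3 comparisons; the number of genes tested stands in parentheses and the lowest row gives all genes tested. Bars to the left are longer than those to the right in every list but that of growth and proliferation control under Cp190 RNAi Chro RNAi, where both hold 3 of 24 genes, and the row of all genes reads 15.7, 15.6 and 20.3% to the left and 18.5, 17.9 and 21.5% to the right.

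The knockdowns were also compared with each other. None of the 10 regulators was called by edgeR when BEAF-32 RNAi Dref RNAi was set against BEAF-32 RNAi, where 2.7% of all genes were called lower and 3.03% higher, nor when Cp190 RNAi Chro RNAi was set against it, at 3.25% and 3.65%. At an unadjusted p under 0.05 stg alone differed in each, and DESeq2 called 1 regulator higher in each. Between the double knockdowns edgeR called 0 genes in all (0.0% lower and 0.0% higher), with 206 lower and 199 higher at an unadjusted p under 0.05 and 3 lower and 3 higher by DESeq2, and none of the 10 at either. When BEAF-32 RNAi replicate 3 was left out, 7 regulators were lower and stg higher under BEAF-32 RNAi Dref RNAi than under BEAF-32 RNAi (21.5% and 21.4% of all genes), with CycE at -0.84 ± 0.087 and CycB3 at -0.76 ± 0.077. Without that library 9 were lower under BEAF-32 RNAi Dref RNAi than under Cp190 RNAi Chro RNAi and none higher, where 6.91% and 5.9% of all genes were called, and the levels of the 9 were between 77.4% and 89.5% of those under Cp190 RNAi Chro RNAi. In the same fit 5 were lower and 2 higher under Cp190 RNAi Chro RNAi than under BEAF-32 RNAi (17.8% and 20.1% of all genes), and the 2 were stg and Rbf.

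Chromatin organization at the 10 genes was read from the TADs and loops that the authors called by Hi-C, 1 list for each knockdown, with no replicate error and no list of WT used here. The lists held 2550 TADs under BEAF-32 RNAi, 2156 under Cp190 RNAi Chro RNAi and 1410 under BEAF-32 RNAi Dref RNAi. All 10 start sites lay in a TAD in each of the 3 lists. The median size of these TADs was 42.1 kb under BEAF-32 RNAi, 53.9 kb under Cp190 RNAi Chro RNAi and 89.7 kb under BEAF-32 RNAi Dref RNAi, and 5, 5 and 3 of the 10 start sites lay within 2 kb of a border. A list with fewer TADs holds fewer borders at any gene. No value over all genes was set beside these, so they show nothing particular to the 10. The start of CycB lay 191 bases from a border under BEAF-32 RNAi and 520 bases from one in each double knockdown. fzy was in the same TAD of 37.6 kb in the first and second of these lists (2L, 16288432 to 16326069). A border lay inside Dp under Cp190 RNAi Chro RNAi, 1936 bases from its start, and in no other list, and CycB3 was in TADs of 26.1, 110.3 and 773.5 kb in the 3 lists.

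No loop anchor covered the 1000 bases before the start of any of the 10 under BEAF-32 RNAi (list of 1179 loops). stg was at an anchor of 3 loops under Cp190 RNAi Chro RNAi (list of 2154 loops), with 94, 24 and 21 observed contacts over 20, 112 and 222 kb, and of 2 loops under BEAF-32 RNAi Dref RNAi (list of 787 loops), with 45 and 19 contacts over 32 and 112 kb. dap and Rbf were each at 1 anchor under Cp190 RNAi Chro RNAi, with 76 and 13 contacts. The loop lists differ in length, contacts were not scaled for depth, and no difference between them was tested.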

How the data were processed

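Poly(A) RNA of BG3 cells was sequenced, and reads were trimmed by the authors (Trimmomatic 0.39) and mapped on dm6 (TopHat2 2.1.2, which ran Bowtie2 2.3.4.1). After Picard had taken out duplicates, they counted reads per gene symbol with HTSeq at its default strand setting and deposited the raw counts. TAD coordinates (HiCExplorer) and loop anchors with observed contacts, a signal value from HiCCUPS, were used as deposited by the authors. Their strong TADs were not used. HTSeq's lines that are no genes (39.4 to 44.1% of reads at no feature, 16.0 to 29.5% without a unique alignment, 0.486 to 0.598% ambiguous) were left out of library sizes.

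edgeR 4.0.16 in R 4.3.3 was run on all 12 libraries with TMM scaling for the 10545 genes that reached 10 counts over the libraries together, with its quasi-likelihood F test and Benjamini-Hochberg adjustment across them. Standard errors were obtained by dividing the size of the log2 fold change by the square root of F, and intervals are 1.96 standard errors on each side. The fit was tested on simulated data. Alternatives were DESeq2 1.42.0, other scaling and filters, each pair of groups alone, a replicate block and each library left out. Nothing says that replicates came from separate cultures, and p-values then measure only how these libraries spread, which may be technical. The members, the lists and the tests were chosen with earlier results of these data known, and 2 fits without BEAF-32 RNAi replicate 3 were added after seeing the data. Named genes are the 10 regulators, the 4 RNAi targets, dp, ine and FIG4, from each list, comparison and direction the 2 called genes with the lowest p, and the 3 genes closest to Dp and to stg. Positions are from the Ensembl 115 annotation of dm6. Tables were handled in Python 3.11.15 (pandas 2.3.3).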

Additional observations from a re-analysis of the deposited data

How the results depend on the processing

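dp and ine rest on 20 to 318 reads per library, and the values of APC7 and tomb on WT means of 1.04 and 2.07 CPM. Each of the 10 regulators had at least 191 reads in every library except CycE in BEAF-32 RNAi replicate 3 (79). Of 630 refits of the 10 fold changes against WT, 537 kept their direction and side of the threshold, 42 lost the call, 46 gained it and 5 turned direction. All 5 were CycE under BEAF-32 RNAi: 0.461 in DESeq2 and 0.442 in the 2 groups alone with replicate 3 left out, 0.024 with total counts, 0.436 without replicate 3 and 0.012 without WT replicate 1, in a range of -0.362 to 0.436 with 1 library left out. With total counts the median of all genes under BEAF-32 RNAi was 0.11.

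Regulators called under BEAF-32 RNAi against WT (5) were 1 in the 2 groups alone, and 9 both in DESeq2 and in the 2 groups alone with replicate 3 left out, and ranged from 2 to 9 with 1 library left out. All genes called (3611) were 1479 in the 2 groups alone and 2480 to 4796 with 1 library left out. For Cp190 RNAi Chro RNAi against WT the 4 regulators were 8 in the 2 groups alone and in both fits with BEAF-32 RNAi replicate 3 left out, and 1 to 8 with 1 library left out, and the 3538 genes were 5918 in the 2 groups alone, 5560 in DESeq2 and 5918 in the 2 groups alone with that library left out, and 2373 to 5981 with 1 library left out. For BEAF-32 RNAi Dref RNAi against WT the 6 regulators were 10 in the 2 groups alone with or without that library (which is in neither group), and 5 to 10 with 1 library left out, and the 4412 genes were 3336 to 6348 with 1 library left out.

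With BEAF-32 RNAi Dref RNAi set against BEAF-32 RNAi, the count of 0 regulators was 1 in DESeq2, 7 in both fits with replicate 3 left out and 0 to 8 with 1 library left out, and the 605 genes were 1163 in DESeq2, 4 in the 2 groups alone, 4038 and 4493 in DESeq2 and the 2 groups alone with replicate 3 left out, and 236 to 4460 with 1 library left out. With Cp190 RNAi Chro RNAi set against BEAF-32 RNAi, 0 regulators became 1 in DESeq2, 7 and 6 in DESeq2 and the 2 groups alone with replicate 3 left out and 0 to 7 with 1 library left out, and 728 genes became 1217 in DESeq2, 30 in the 2 groups alone, 3552 and 3705 with replicate 3 left out and 265 to 3943 with 1 library left out. Between the double knockdowns 0 regulators became 8 in the 2 groups alone and in both fits with that library left out, and 0 to 9 with 1 library left out, and 0 genes became 6 in DESeq2, 1 with total counts, 1018 in the 2 groups alone, 1167 in DESeq2 with that library left out and 0 to 1331 with 1 library left out. Fits on more than 2 groups share 1 estimate of spread, and the 1018 genes of the 2 groups alone do not involve that library. Apart from this shared estimate, causes of the moves were not tested.

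No pairing of the libraries by replicate number was seen: of 18 same-numbered pairs none correlated above 0.1 (lowest -0.0316, highest 0.0245). The correlation runs over all genes tested with equal weight, so a pairing limited to some genes could go unseen. With a replicate block the regulators called against WT stayed at 5, 4 and 6, and genes called for Cp190 RNAi Chro RNAi against BEAF-32 RNAi fell from 728 to 463. Of 924 list counts under alternatives, 126 moved by over 1.5 times.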

Other observations

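Of 14 DNA damage and replication checkpoint genes tested, 6 were called lower and 4 higher under BEAF-32 RNAi, 5 and 1 under Cp190 RNAi Chro RNAi and 5 and 1 under BEAF-32 RNAi Dref RNAi (median log2 fold changes -0.32, -0.10 and -0.11). Over all genes 15.7%, 15.6% and 20.3% were called lower and 18.5%, 17.9% and 21.5% higher. The kinase genes were among those that fell: tefu (ATM) at log2 fold changes of -0.75 ± 0.13, -0.66 ± 0.13 and -0.82 ± 0.13 (SE, 3 libraries a group), lok (Chk2) at -1.01 ± 0.21, -0.99 ± 0.21 and -1.48 ± 0.22, and grp (Chk1) at -0.44 ± 0.12 (-0.27 without BEAF-32 RNAi replicate 3), -0.65 ± 0.12 and -0.90 ± 0.13. p53, the transcription factor downstream of these kinases, rose from a mean of 45.7 CPM in WT to 151.9, 87.5 and 108.6 (1.73 ± 0.28, 0.94 ± 0.28 and 1.25 ± 0.28), and its value under BEAF-32 RNAi was 1.17 without replicate 3. Hus1-like, a subunit of the checkpoint clamp, was called higher under BEAF-32 RNAi (1.15 ± 0.21, adjusted p = 0.00179 in edgeR).

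Of 24 genes of growth and proliferation control, 6, 3 and 6 were called lower and 3 higher in each comparison (medians -0.07, -0.03 and -0.08), and the first median was -0.15 without BEAF-32 RNAi replicate 3. Under Cp190 RNAi Chro RNAi both counts lay below the share of all genes, as did the 3 genes called higher in the other comparisons. Thor, the 4E-BP that restrains translation, rose from 23.3 CPM in WT to 85.5, 126.5 and 208.7, at log2 fold changes of 1.87 ± 0.32, 2.44 ± 0.33 and 3.16 ± 0.33, and the first was 1.22 without BEAF-32 RNAi replicate 3. S6k, a kinase that promotes translation, rose as well (0.64 ± 0.061, 0.52 ± 0.061 and 0.63 ± 0.061). foxo was called lower in all 3 (-0.39 ± 0.070, -0.25 ± 0.069 and -0.34 ± 0.069), as was chico, the insulin receptor substrate (-0.23 ± 0.078, -0.33 ± 0.077 and -0.44 ± 0.078).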
